A study of Homo sapiens with 42 samples.

Results

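The regions described here are stretches of chromatin that were open in all 7 untreated cell lines and lay away from the ends of protein-coding genes. They were chosen as the bases covered by a peak interval in every one of the 21 DMSO peak lists, joined into segments of at least 100 bp on chromosomes 1 to 22 and X, with the centre more than 5 kb from both ends of every RefSeq protein-coding gene. There were 1084 such distal regions among 7145 shared segments, and the other 6061 had their centre within 5 kb of a gene end and are called gene-end regions. Accessibility was measured by ATAC-seq: a loaded transposase cuts DNA where nucleosomes leave room, and the fragments are sequenced. The 42 samples came from the leukaemia line MV411 (acute myeloid), the rhabdomyosarcoma line RD, the melanoma lines A375 and 92-1 (the latter uveal), and the carcinoma lines 22RV1 (prostate), HCT116 (colorectal) and DU4475 (invasive, of the breast). Each line, labelled as wild type, received FHT-1015 or the solvent control DMSO for 4 h, with 3 biological replicates in each of the 14 groups. FHT-1015 inhibits SMARCA4 and SMARCA2 together, and the sources used here give no dose. The samples of MV411 are labelled like the others, although the design text names only the other 6 lines.

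SMARCA4 and SMARCA2 are the alternative ATPase subunits of the BAF complexes, which use ATP to slide or evict nucleosomes. Enhancers that define a cell type commonly depend on this activity to stay accessible, whereas promoters rich in CpG dinucleotides and sites bound by CTCF are open in most cell types. A region open in unrelated lines can therefore be an unlisted or alternative promoter, an insulator, or an enhancer in broad use, and the question put to the data was how many of these regions stayed open in each line when the ATPases were inhibited.

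The word distal applied only in part. Of the 1084 regions, 400 (36.9%) overlapped a RefSeq promoter window, which runs from 250 bp before to 50 bp after a listed transcript start. The overlapped windows belonged to protein-coding genes for 301 regions and to other genes for 138, and a region could overlap more than 1. These are starts inside long genes, or starts of non-coding genes, which the ends of protein-coding genes do not mark. The upstream 250 bases of 7 of these windows are shown, as RefSeq gives them on GRCh38.p14, because they stand for the range of responses described further on. FOCAD, LINC01003, DANCR and LOC112267988 stand for regions that stayed open, TET1 for the promoter region retained in the fewest samples, and NHSL3 and ARHGAP31-AS1 for regions lost in a single line. Capitals mark a match to a motif that was searched on both strands: NRF1 in FOCAD, ETS in LINC01003 and CTCF in ARHGAP31-AS1.
FOCAD (chr9:20684009-20684258, plus strand): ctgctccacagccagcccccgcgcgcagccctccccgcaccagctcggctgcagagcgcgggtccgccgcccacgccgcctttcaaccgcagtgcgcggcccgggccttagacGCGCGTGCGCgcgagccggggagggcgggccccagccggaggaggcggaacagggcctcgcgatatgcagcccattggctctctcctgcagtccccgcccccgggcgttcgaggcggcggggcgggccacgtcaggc
LINC01003 (chr7:152463874-152464123, plus strand): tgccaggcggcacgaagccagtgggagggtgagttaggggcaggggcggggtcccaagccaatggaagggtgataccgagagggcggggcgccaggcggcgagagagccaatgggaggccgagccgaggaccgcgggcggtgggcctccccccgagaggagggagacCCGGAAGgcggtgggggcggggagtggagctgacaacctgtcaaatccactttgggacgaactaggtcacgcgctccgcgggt
DANCR (chr4:52712144-52712393, plus strand): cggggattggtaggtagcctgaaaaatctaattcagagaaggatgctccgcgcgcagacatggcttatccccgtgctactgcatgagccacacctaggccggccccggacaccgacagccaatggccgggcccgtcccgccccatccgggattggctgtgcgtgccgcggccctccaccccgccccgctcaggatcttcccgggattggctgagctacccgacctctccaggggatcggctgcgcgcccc
LOC112267988 (chr7:143836513-143836762, plus strand): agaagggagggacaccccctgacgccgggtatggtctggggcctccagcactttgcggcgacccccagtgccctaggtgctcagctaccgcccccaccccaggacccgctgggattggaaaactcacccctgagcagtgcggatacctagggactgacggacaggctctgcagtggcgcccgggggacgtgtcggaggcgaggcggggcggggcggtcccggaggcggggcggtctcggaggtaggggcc
TET1 (chr10:68600224-68600473, plus strand): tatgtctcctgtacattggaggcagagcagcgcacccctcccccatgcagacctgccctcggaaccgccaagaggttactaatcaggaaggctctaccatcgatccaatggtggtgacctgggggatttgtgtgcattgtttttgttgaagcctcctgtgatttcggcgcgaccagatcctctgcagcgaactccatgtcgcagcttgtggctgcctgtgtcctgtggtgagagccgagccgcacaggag
NHSL3 (chr1:32753749-32753998, plus strand): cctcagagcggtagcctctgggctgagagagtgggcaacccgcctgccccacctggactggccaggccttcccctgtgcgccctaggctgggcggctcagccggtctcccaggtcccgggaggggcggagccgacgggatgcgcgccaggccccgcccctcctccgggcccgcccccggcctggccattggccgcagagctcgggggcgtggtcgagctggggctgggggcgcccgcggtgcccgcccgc
ARHGAP31-AS1 (chr3:119322761-119323010, minus strand): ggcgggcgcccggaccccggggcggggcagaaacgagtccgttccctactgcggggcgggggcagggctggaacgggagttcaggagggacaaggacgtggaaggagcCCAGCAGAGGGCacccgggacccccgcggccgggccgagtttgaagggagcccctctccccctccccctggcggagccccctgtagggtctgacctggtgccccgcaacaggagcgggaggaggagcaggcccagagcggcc

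Of the 7 sequences, 6 hold 24 to 39 CG dinucleotides in their 300 bp windows, while that of TET1 holds 11. Over all 342 protein-coding windows that the regions overlapped, the median was 29 CG dinucleotides and a GC content of 68.3%, against 21 and 62.3% in all 22131 protein-coding windows of the table. The contrast was wider for the 160 windows of other genes, with medians of 27 CG dinucleotides and 66.7% GC, against 5 and 50% in all 12830 such windows. The ETS letters CCGGAAG occurred in 17.5% of the overlapped protein-coding windows and in 12.8% of all of them, and in 20.6% of the overlapped windows of other genes against 5.85% of all. The NRF1 letters (GCGC, any base, then TGCGC) occurred in 8.19% of the overlapped protein-coding windows against 7.40%, and in 11.9% of the overlapped windows of other genes against 3.04%. The AP-1 letters TGANTCA, which mark many regulated enhancers, were rarer in the overlapped windows, at 4.39% against 6.15% and at 5.63% against 10.3%. CTCF letters stood at 3.51% against 2.52% and at 3.13% against 2.23%, YY1 letters (AAGATGGC) at 3.22% against 3.54% and at 2.50% against 1.77%, and RFX letters at 0.877% against 0.258% and at 1.25% against 0.304%. ETS and NRF1 letters are themselves GC-rich, and how much of their excess follows from base composition was not tested. Sequence of the regions away from listed starts was not used here.

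The regions were short, with a median of 201.5 bp (100 to 1111 bp), and their centres lay a median of 23337 bp from the nearest protein-coding gene end. At the edges of the rule, 32 regions were less than 10 bp above the shortest length allowed, while 31 distal segments were left out for 10 bp or less. In the same way 68 regions lay 5 to 6 kb from an end, and 70 segments at 4 to 5 kb counted as gene-end regions. The strongest peak on a region ranked at the 93.5th percentile (median over regions of the mean over DMSO lists, by −log10 p within each list), with a range of 62.9 to 100.

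The files are peak lists without read counts, so depth is not given directly. A list held 114291 to 431956 peaks, of which 0.787% to 60.8% had a −log10 q of at least 5 (strict peaks). A background level was recovered from the deposited fold and p of peaks sampled from each list. The level shared by the most of these peaks (17.3% to 80.4% of them), used as a stand-in for depth, lay between 0.0341 and 2.79. Replicates 2 and 3 of FHT-1015-treated 92-1 stood apart, with backgrounds of 0.0346 and 0.0341, against 0.299 in replicate 1 and 0.0839 to 0.430 in the 3 DMSO samples of that line. They held 2037 and 1412 strict peaks. A missing peak in these 2 samples cannot be told apart from low depth, so results are also given without 92-1. Backgrounds under DMSO and FHT-1015 overlapped in A375, DU4475, HCT116 and RD, were higher under FHT-1015 in 22RV1 (0.768 to 1.02 against 0.532 to 0.702), and were lower in MV411 (0.260 to 0.270 against 0.400 to 0.495). Strict peaks under DMSO lay within 1 kb of an end of SPI1, PTPRC, CD33 and MPO in 3 of 3 MV411 samples and of MYOD1, MYOG and PAX3 in 3 of 3 RD samples (MYF5 in 0). Of these, PTPRC, CD33 and MYOG were marked in 0 of the 18 samples of the other lines, and SPI1 was marked in 9, MYOD1 in 7, PAX3 in 5 and MPO in 1. In DU4475 and HCT116, CDH1 was marked in 6 of 6 and EPCAM in 5 of 6 samples, against 3 of 15 each elsewhere, while CDX2, KRT8 and KRT18 were marked in 4 of 6 each and in 6, 8 and 8 of 15 elsewhere. Of the melanoma markers, MITF and PMEL did not set A375 and 92-1 apart: MITF was marked in 5 and PMEL in 3 of their 6 samples but in 15 and 14 of the 15 others, and MLANA in 2, SOX10 in 1 and TYR in 1 of their 6 against 0 elsewhere.

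Most of the distal regions stayed open under FHT-1015. A region was counted as retained in a sample when peaks covered at least 50% of its bases. Since the rule set the DMSO share at 100%, the shares under FHT-1015 are a description. The 3 samples of 22RV1 retained 98.0%, 98.5% and 98.3% of the 1084 regions (98.3% ± 0.277, mean ± SD, n = 3), and those of MV411 98.2%, 98.6% and 98.0% (98.3% ± 0.333). A375 retained 97.7%, 99.9% and 98.7% (98.8% ± 1.11), DU4475 98.2%, 98.0% and 96.8% (97.6% ± 0.751), and HCT116 97.4%, 98.3% and 96.6% (97.5% ± 0.877). In these 5 lines the lowest sample stood at 96.6%.

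RD was lower, at 92.6%, 89.1% and 96.8% (92.8% ± 3.83), and its lowest replicate lay below every sample of those 5 lines. In 92-1, replicate 1 retained 95.5%, while replicates 2 and 3, of very low background, retained 61.7% and 51.9% (69.7% ± 22.9 over all 3). Gene-end regions kept higher shares in 6 lines, with means of 98.2% in RD and 98.8% to 99.8% in 22RV1, A375, DU4475, HCT116 and MV411. In 92-1 their mean was 69.3% ± 24.2, close to that of the distal regions. Over all samples, 344 distal regions (31.7%) were retained in all 21 FHT-1015 lists, beside 2009 gene-end regions (33.1%). With the lists of 92-1 left out, 814 distal regions (75.1%) and 5488 gene-end regions (90.5%) were retained in all 18.

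**Figure D1:**
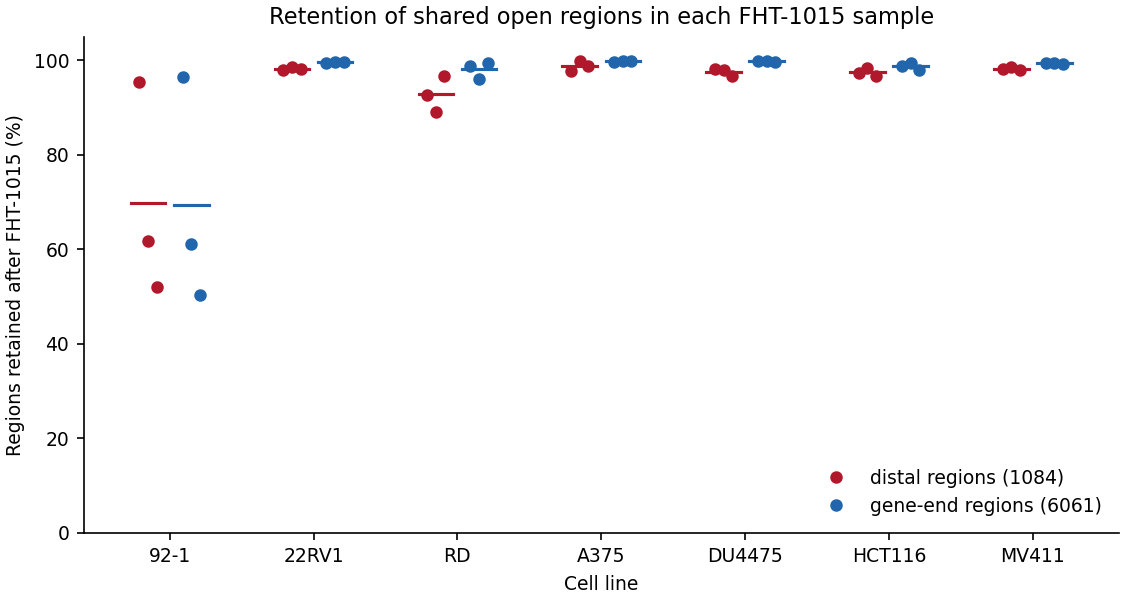
Share of the shared open regions (y axis, %) that at least 50% of bases under a peak marked as retained in each FHT-1015 sample (points) of the 7 lines (x axis), with the mean as a bar, for 1084 distal and 6061 gene-end regions. Distal shares lie between 96.6% and 99.9% in 5 lines, between 89.1% and 96.8% in RD, and at 61.7% and 51.9% in the 2 samples of 92-1 with very low background.

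Complete loss, meaning retention in none of a line's 3 FHT-1015 samples, befell 0 to 27 regions per line. In 92-1 it was 27 regions (2.49%), where 46.5% of all distal segments of that line's own DMSO lists were lost in the same sense. In RD 16 regions (1.48%) were lost beside 35% of the line's distal segments, and in 22RV1 8 (0.738%) beside 28.6%. MV411 lost 4 beside 25.9%, DU4475 3 beside 14.4%, HCT116 3 beside 9.88%, and A375 0 beside 18.2%. Since the regions were picked for being open in all DMSO lists, nothing is read from these differences. By number of lines, 1031 regions were lost in no line, 46 in 1 line, 6 in 2 lines and 1 in 3 lines. With so few losses per line, little overlap would arise in any case, and whether losses were shared was not tested. These counts depend on single samples and on how a peak is defined. Without FHT-1015 replicate 1 of 92-1, 264 regions were lost in that line in place of 27, and without FHT-1015 replicate 3 of RD 45 in place of 16. Leaving out 1 FHT-1015 sample gave at most 12 in each of the other 5 lines. With a sample left out, loss means retention in none of 2 samples in place of 3, so these counts cannot fall. With strict peaks 191 regions were not retained in any FHT-1015 sample of 92-1, 167 in RD, 49 in DU4475, 30 in HCT116, 25 in 22RV1, and 20 each in A375 and MV411. These counts did not require a strict peak under DMSO, so part of them need not be losses. Strict peaks under DMSO covered means of 74.9% of the regions in 92-1, 87.7% in A375, 90.9% in RD and 98.9% in 22RV1.

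To compare DMSO with FHT-1015 by samples that took no part in the choice, regions were picked for each line from the DMSO lists of the other 6 lines by the same rule, and the share of them with a peak was read in the line left out. This gave 1143 to 1676 distal regions per line. Under FHT-1015 the share was lower in 5 of 7 lines and fell by a mean of 5.26 percentage points over lines (exact permutation test over lines, two-sided, p = 0.0323, n = 3 per group). The call depended on the setting: the mean was -7.39 points with strict peaks (exact permutation p = 0.0646), -5.68 points in 6 lines with lists thinned to equal background (p = 0.0639) and -2.35 points among the 50000 strongest peaks of each list (p = 0.428). Without 92-1, the line with the largest difference, the mean fell by 2.13 points (exact permutation p = 0.00261), but it was -3.82 points with strict peaks (p = 0.0853) and 1.37 points, the other direction, with the strongest peaks (p = 0.120). Without RD the mean fell by 4.78 points (exact permutation p = 0.118). Dropping any 1 of 5 of the 6 samples of 92-1, the exception being FHT-1015 replicate 1, ended the call (exact permutation p = 0.0511 to 0.130).

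Outside 92-1 the largest difference was in RD. Its DMSO samples had peaks on 91.8%, 91.2% and 90.6% of 1275 regions, and its FHT-1015 samples on 82.6%, 78.6% and 88.0%. The groups did not overlap, and the difference was -8.16 points (exact permutation p = 0.1, the smallest that 3 against 3 samples can give; adjusted over 7 lines 0.233). With strict peaks the RD difference was -18.2 points (60.1% ± 11.4 against 78.3% ± 1.65), and the groups did not overlap either. Among the 50000 strongest peaks of each list it was -3.95 points and the groups overlapped. With thinned lists it was -22.6 points (50.1% ± 12.2 against 72.7% ± 3.70), with groups apart. The RD lists held 192175, 152849 and 204577 peaks under FHT-1015, beside 242304, 209804 and 220367 under DMSO. Strict peaks in RD numbered 13760 to 28354 under FHT-1015 and 41806 to 48752 under DMSO. How far the smaller FHT-1015 lists account for the lower shares was not tested.

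In 22RV1 the DMSO samples had peaks on 96.3%, 96.5% and 96.0% of 1143 regions and the FHT-1015 samples on 94.8%, 94.7% and 94.7%, a difference of -1.55 points with groups apart. The groups stayed apart in 22RV1 with strict peaks (-3.27 points), with the strongest peaks (-1.02 points) and with thinned lists (-8.05 points). In MV411 the DMSO samples stood at 95.8%, 95.8% and 95.9% of 1155 regions and the FHT-1015 samples at 94.0%, 94.2% and 94.1%, a difference of -1.76 points. This direction turned with the setting: with the 50000 strongest peaks the share in MV411 was 90.5% ± 0.304 under FHT-1015 and 84.8% ± 0.328 under DMSO, again with groups apart. MV411 had 52664 to 53585 strict peaks under FHT-1015 and 105420 to 121774 under DMSO, and the lower background given before. With thinned lists the MV411 difference was 0.346 points and the groups overlapped.

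The other 4 lines had overlapping groups. DU4475 stood at 88.5% ± 1.76 under FHT-1015 and 90.4% ± 1.31 under DMSO, A375 at 96.5% ± 2.27 and 96.3% ± 1.55, and HCT116 at 92.7% ± 0.946 and 92.4% ± 0.725. In 92-1 the FHT-1015 samples had peaks on 85.0%, 48.0% and 40.3% of 1676 regions and the DMSO samples on 94.2%, 81.6% and 69.6%. Adjusted p-values over the 7 lines were between 0.233 and 1. In A375 the share among the 50000 strongest peaks was higher under FHT-1015, at 90.1% ± 0.764 against 83.9% ± 1.92, with groups apart.

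**Figure D2:**
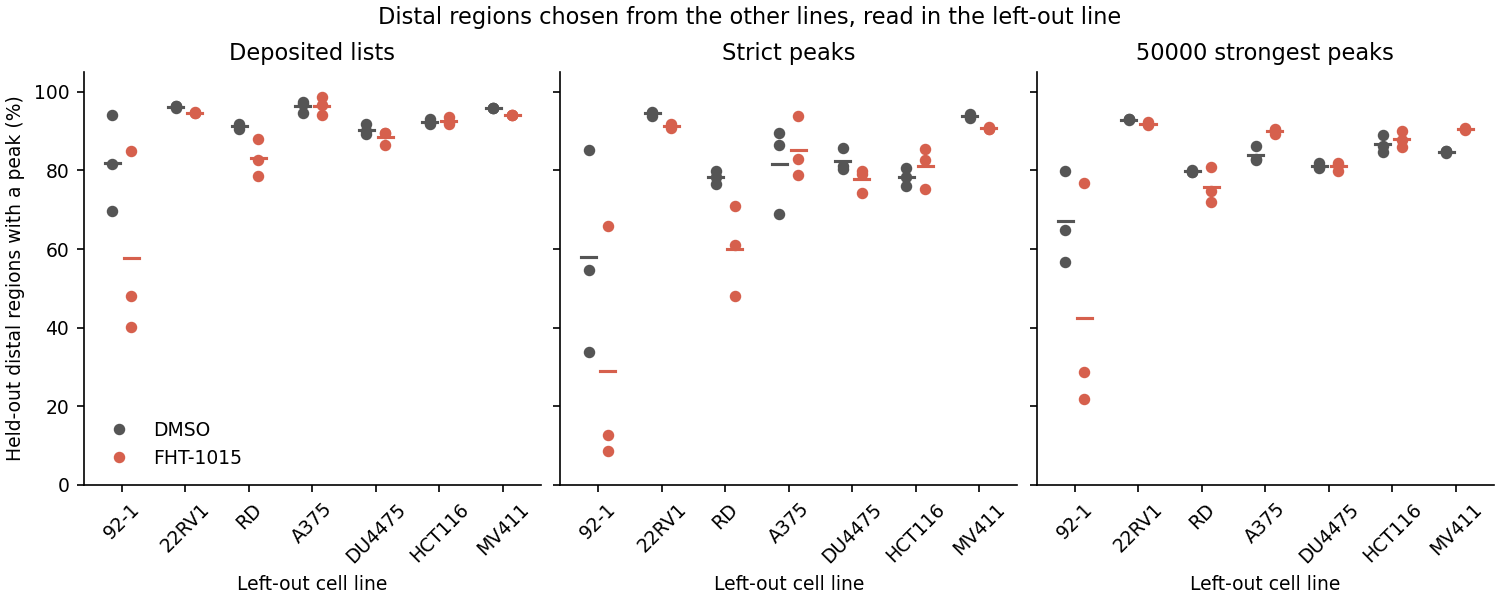
Share of held-out distal regions with a peak (y axis, %) in each sample of the left-out line (x axis) under DMSO (grey) and FHT-1015 (red), with the mean as a bar, for the deposited lists, strict peaks (−log10 q of at least 5) and the 50000 strongest peaks. RD is lower under FHT-1015 in the deposited lists (83.1% against 91.2%) and strict peaks (60.1% against 78.3%), while MV411 turns from lower in the deposited lists to higher among the strongest peaks.

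The spread of the change over lines was tested by permuting the labels within lines, which takes no change in any line as the null. The SD of the 7 line effects was 8.76 points (permutation test with 100000 draws, one-sided, p = 0.297), and without 92-1 it was 3.11 points (p = 0.103). Of the 21 pairs of lines, the lowest raw exact permutation p was 0.03, for RD against HCT116 (difference -8.46 points) and HCT116 against MV411 (2.07 points), with 0.245 for both after adjustment over the 21 pairs. A difference between lines was not shown. Because the null was no change in any line, equal changes across lines were not tested as such.

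In the deposited lists, the held-out distal share fell more than the gene-end share. The difference between the held-out distal and gene-end shares changed by -1.46 points on average (exact permutation test over lines, two-sided, p = 0.00933), and was negative in 5 of 7 lines. The call rested on RD, where the distal share changed by -8.16 points and the gene-end share by -1.97 points. Without RD the mean was -0.674 points (exact permutation p = 0.125), and without 92-1 it was -1.75 points (p = 0.00151). With strict peaks the mean was -1.74 points (exact permutation p = 0.0781) and with the 50000 strongest peaks 0.430 points (p = 0.413). Gene-end regions open in all DMSO lists ranked higher in RD under DMSO, at median percentiles of 97.0 to 97.4 against 95.3 to 95.9 for distal regions. The held-out shares in RD under DMSO were 99.1% for gene-end and 91.2% for distal regions. Distal and gene-end regions were not compared at like strength.

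Retention rose with the number of lines in which a distal segment was open. For each line, the distal segments of its 3 DMSO lists were sorted by how many of the 7 lines had them open under DMSO. A segment counted as open in another line when each of that line's 3 DMSO lists covered at least 50% of its bases. The segments were cut from a line's own lists, so those open in all 7 lines are not the same set as the 1084 regions. In MV411, 64308 segments open in MV411 alone were retained at 46.7% on average over the 3 FHT-1015 samples, and the 910 open in all 7 lines at 97.4%. In 22RV1 the share rose from 34.5% to 97.5%, in A375 from 50.4% to 96.8%, in HCT116 from 49.1% to 97.3%, and in DU4475 from 57.4% to 91.9%. RD rose from 31.3% to 80.1% (279 segments open in all 7 lines) and 92-1 from 16.9% to 67.3% (1112 segments). The share rose at every step in every line. Strength was set beside this: in RD, 528 of the 1036 segments that held the centre of one of the 1084 regions ranked at the 95th DMSO percentile or above. Only 1062 of the other distal segments of RD did so, where the line had 25475 distal segments in all. The line's segments that held such a centre were therefore set beside its other distal segments at like DMSO percentile. At the 80th to 90th percentile 76.4% of such segments were retained in RD against 46.6% of the others, and 90.6% against 52.7% in 22RV1. At the 95th percentile and above, RD stood at 98.8% against 85.8%, 22RV1 at 99.6% against 85.2% and 92-1 at 77.1% against 43.2%. The gap was narrower there in the other 4 lines, with 99.8% against 94.7% in HCT116, 100% against 95.5% in A375, 99.7% against 97.4% in MV411 and 100% against 99.8% in DU4475. These shares are descriptions of segments that share libraries, and no test was made on them.

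**Figure D3:**
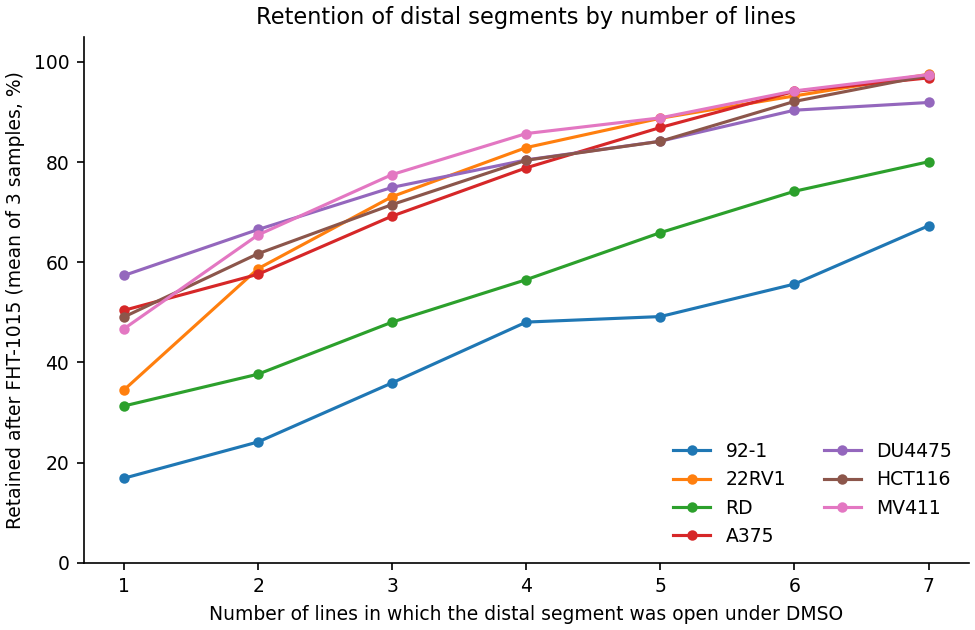
Mean share of a line's distal segments retained under FHT-1015 (y axis, %, mean of 3 samples) by the number of lines in which the segment was open under DMSO (x axis). Every line rises from left to right, from 16.9% to 57.4% for segments open in 1 line to 67.3% to 97.5% for those open in 7.

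The regions fell into 4 classes by what the RefSeq table lists nearby. A start of a protein-coding gene lay within 1 kb of 324 regions (29.9%), and a start of another gene alone within 1 kb of 117 (10.8%). A mitochondrial pseudogene, a nuclear copy of mitochondrial DNA, lay within 1 kb of 77 (7.10%), which were put in this class first. The other 566 (52.2%) had no listed start within 1 kb. Retention in all 18 lists outside 92-1 was 85.5% for regions at protein-coding starts, 84.6% at other starts and 65.4% with no listed start. The gap was widest in RD, where the mean share over its 3 samples was 97.1% at protein-coding starts, 96.0% at other starts and 89.0% with no listed start. In DU4475 the same shares were 99.9%, 100% and 96.0%, and in 22RV1 99.5%, 99.7% and 97.0%. Of the 16 regions lost in RD, 13 had no listed start, as had 8 of 8 in 22RV1, 4 of 4 in MV411, 3 of 3 in DU4475, 2 of 3 in HCT116 and 19 of 27 in 92-1.

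Regions with no listed start were also weaker and narrower under DMSO, with a median percentile of 91.3 and 185 bp, against 94.8 and 216 bp at protein-coding starts. Among regions at or above the 95th DMSO percentile, 98.8% of 166 with no listed start and 97.4% of 156 at protein-coding starts were retained in all 18 lists. From the 90th to the 95th percentile the shares were 70.7% of 164 and 84.7% of 111, and below the 90th percentile 38.1% of 236 and 54.4% of 57. In RD the regions below the 90th percentile were retained at 78.4% with no listed start and at 91.2% at protein-coding starts. The order was the reverse in HCT116 (93.9% against 88.9%) and in 92-1 (57.1% against 53.2%), while the other lines went as RD did. Width moved the same way: 49.6% of the 248 regions under 150 bp and 96.3% of the 160 of 300 bp or more were retained in all 18 lists. The same comparison was made on the held-out regions after the pattern had been seen. It uses the same samples and largely the same regions, so it restates the pattern and is no independent support. The share with no listed start fell more than the share with a listed start within 1 kb, by a mean difference of -1.93 points that was below 0 in 5 of 7 lines (exact permutation test over lines, two-sided, p = 0.00572). In RD the share with no listed start was 76.5% ± 5.81 under FHT-1015 and 87.2% ± 0.618 under DMSO, and that with a listed start 94.6% ± 2.83 and 98.4% ± 0.664. Without RD the difference was -1.11 points (exact permutation p = 0.0736), with strict peaks -1.98 points (p = 0.0807) and with the 50000 strongest peaks 0.210 points (p = 0.737).

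**Figure D4:**
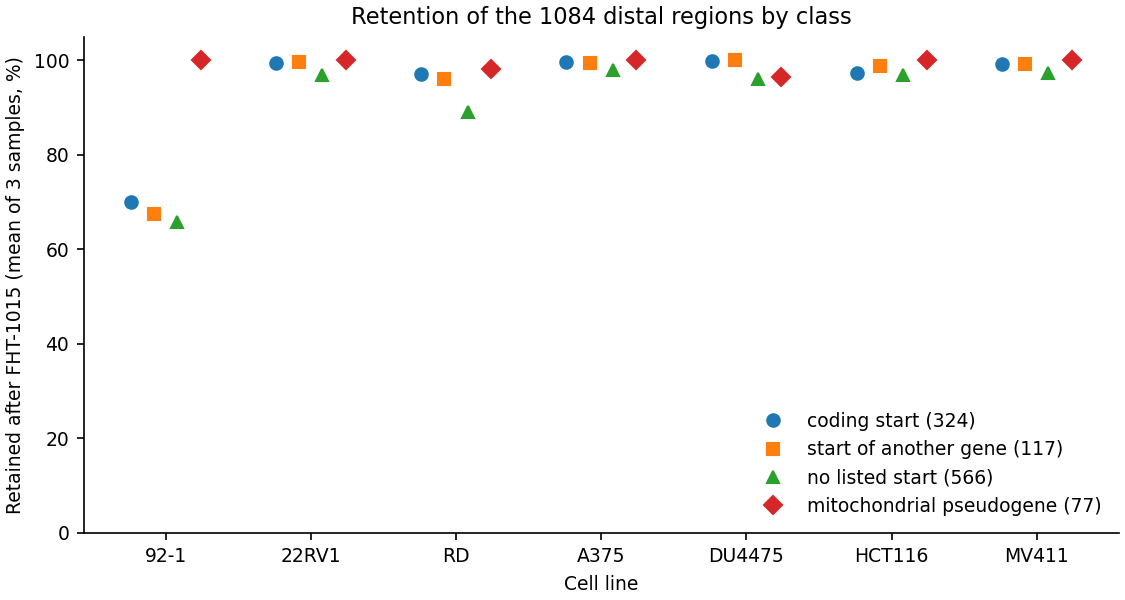
Mean share of the 1084 distal regions retained under FHT-1015 (y axis, %, mean of 3 samples) in each line (x axis), by class of the nearest listed feature, with the number of regions in brackets. Regions with no listed start lie lowest of the 4 classes in each of the 7 lines (89.0% in RD), and those at mitochondrial pseudogenes lie at 100% in 92-1.

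The 77 regions at mitochondrial pseudogenes had higher shares than the others in 92-1. They were retained at 100% in 92-1, where the other 1007 regions were retained at 67.4%, and 68 of them (88.3%) were in all 21 FHT-1015 lists, against 27.4% of the other 1007. The 4 regions with the highest mean DMSO percentile were of this kind: 3 on chromosome 1 near MTND2P28 and MTATP6P1, inside LOC102724250, and 1 on chromosome 17 near MTCYBP13. Their peaks ranked at the 99.99th percentile or higher in the mean over DMSO lists. Reads of mitochondrial DNA can align to such copies, and mitochondrial reads were not analysed here, so their part in these peaks was not tested. Without them the mean change of the held-out shares was -5.58 points (exact permutation p = 0.0294), and 276 regions stayed in all 21 lists.

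By position, 570 regions lay inside a protein-coding gene and 514 outside, and 78.9% and 70.8% of them were retained in all 18 lists outside 92-1. An end of a long non-coding RNA gene lay within 1 kb of 218 regions, of which 81.2% were in all 18 lists, and an end of a transfer RNA gene within 1 kb of 16, of which 13 were. Another 3 regions lay within 1 kb of an end of a microRNA gene, and those over MIR12136, MIR6090 and MIR4741 were retained in 20, 21 and 19 of the 21 FHT-1015 lists. Chromosome 1 held 136 regions, chromosome 7 103 and chromosome 5 81.

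Regions over non-coding genes were ranked by their DMSO percentile alone. The highest mean DMSO percentile outside the mitochondrial class was at chr7:143836605-143837062, which overlaps the non-coding gene LOC112267988 and lies 14.5 kb from TCAF1. It was retained in all 21 FHT-1015 samples, and its mean percentile was 99.8 under both treatments. A like pattern held at chr7:152463633-152464217 over LINC01003, a long non-coding RNA gene 27.9 kb from KMT2C, at the 99.7th percentile under both treatments and in all 21 samples. The start of DANCR, a long non-coding RNA gene that hosts small nucleolar RNAs, was covered by chr4:52712153-52712546 and retained in 20 samples, with a single miss in 92-1. Internal starts of FOCAD (chr9:20684145-20684316) and SRI (chr7:88219949-88220234), which encodes the calcium-binding protein sorcin, were retained in all 21. Their mean percentile in 92-1 was lower under FHT-1015, at 77.3 against 99.2 for FOCAD and 77.7 against 99.3 for SRI, while in the other lines both regions lay at 96.4 to 99.9 under FHT-1015.

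The region lost most widely was chr11:134034134-134034273, 34.9 kb from JAM3, which encodes a junctional adhesion molecule, and over the non-coding gene LINC02731. It was retained in 7 of the 21 FHT-1015 samples. Under DMSO its deposited fold enrichment was 14.0, 15.7 and 8.46 in 92-1, and no peak was listed in any FHT-1015 sample of that line, replicate 1 included. In 22RV1 the folds were 13.6, 18.2 and 20.7 under DMSO, and a peak was listed in 1 of 3 FHT-1015 samples, with 5.91. In MV411 they were 21.1, 21.2 and 21.7, and 4.35 in the sole FHT-1015 sample with a peak. These 3 lines held strong DMSO peaks there, at mean percentiles of 98.7, 98.7 and 96.9. RD listed 4.46, 3.57 and 3.72 under DMSO and none under FHT-1015. DU4475 kept its peak in all 3 FHT-1015 samples, at folds of 3.64, 2.84 and 2.90 beside 6.20, 4.21 and 5.36 under DMSO. Each fold is relative to its own list, so folds are set side by side here and no change is read from them. The region was picked as the one retained least, so these values have no test.

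It was lost in 92-1, RD and HCT116, and the next 9 regions by this count were lost in 0 to 2 lines each. A region inside AGBL4 (chr1:48916269-48916402) was in 10 FHT-1015 samples and lost in RD and DU4475. One inside ZBTB16, which encodes a zinc finger repressor (chr11:114160049-114160290), was in 11 and lost in RD. A region 19.97 kb from ACTA1, the skeletal muscle actin gene (chr1:229411220-229411330), was in 11 and lost in 92-1 and 22RV1. It overlaps the non-coding gene LOC124904541. RD, DU4475 and MV411 each kept it in 3 of 3. In RD the folds were 2.98, 4.63 and 3.83 beside 7.52, 7.83 and 7.24 under DMSO. None of these RD peaks under FHT-1015 was strict, while those of DU4475 and MV411 were strict in all 3 samples. One inside EIF4G3, a translation initiation factor gene (chr1:21022395-21022518), was the weakest under DMSO, at the 62.9th percentile, and was lost in 92-1 and MV411.

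A region inside IL1RAP, the gene of the interleukin-1 receptor accessory protein (chr3:190585980-190586093), was lost in RD and DU4475. A375 kept it at folds of 5.51, 9.76 and 8.09 beside 10.3, 8.30 and 5.07 under DMSO, and MV411 at 12.1, 14.5 and 11.97 beside 25.1, 21.5 and 23.3. The regions near CLN8 and PGRMC2 and inside JAK1, a cytokine receptor kinase gene, were each in 12 samples. The tenth, chr10:68600348-68600563, overlaps an internal start of TET1, which encodes a DNA demethylating dioxygenase, and was in 13 samples. It was retained in 3 of 3 samples of DU4475 and MV411, in 2 of 22RV1 and RD, and in 1 of 92-1, A375 and HCT116, and was lost in no line. Another region was in 13 samples as well, and TET1 was taken for its higher DMSO percentile. Of the 11 regions in 13 samples or fewer, 10 had no listed start within 1 kb, beside 52.2% of all regions.

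Loss in a given line was described by 2 regions for each of 6 lines, those kept most widely elsewhere. The region inside IL1RAP, taken for DU4475, was lost in RD as well, and the other 11 were lost in 1 line each. In 92-1 they lay at the start of ARHGAP31-AS1 inside ARHGAP31 (chr3:119322853-119323072), and inside ARID1B (chr6:157021534-157021685), which encodes a subunit of BAF itself. Both were retained in all 18 samples of the other lines. Both losses were partial in replicate 1 of 92-1, where peaks covered 46.4% of the ARHGAP31-AS1 region and 42.8% of the ARID1B region, just under the 50% that counts. In 22RV1 they lay near HGF, the hepatocyte growth factor gene (chr7:81685063-81685271), and inside RASA3, a Ras GTPase-activating protein gene (chr13:114065166-114065310), and each was kept in 16 samples.

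In RD the 2 regions lay inside PROM1, which encodes the surface glycoprotein CD133 (chr4:16001517-16001659), and 392.9 kb from CAMK1G (chr1:209190770-209190873). Each was kept in all 18 samples of the other lines, and each was weaker in RD under DMSO (percentiles of 60.8 and 69.7) than its mean over all DMSO lists (85.4 and 82.2). In DU4475 they lay inside OTOGL and IL1RAP, and in HCT116 at an internal start of NHSL3 (chr1:32753837-32753975) and inside STK3, a kinase gene of the Hippo pathway. The NHSL3 region was kept in all 18 samples of the other lines. In MV411 they lay inside ABLIM1 (chr10:114526813-114526985) and 22.1 kb from ARHGAP27 (chr17:45371756-45371863), with MV411 DMSO percentiles of 45.3 and 25.8 beside means of 83.8 and 74.0 over all DMSO lists. A375 lost none. Ties in the choice of these regions were settled by the highest mean DMSO percentile, which favours a mean above the rank in the losing line. In 12 of these 12 cases the lost region ranked lower in the losing line under DMSO than in its mean over all DMSO lists. Over all 61 losses of a region in a line this held for 44 (14 of 16 in RD, 15 of 27 in 92-1), beside 37.4% of all pairs of a region and a line.

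**Figure D5:**
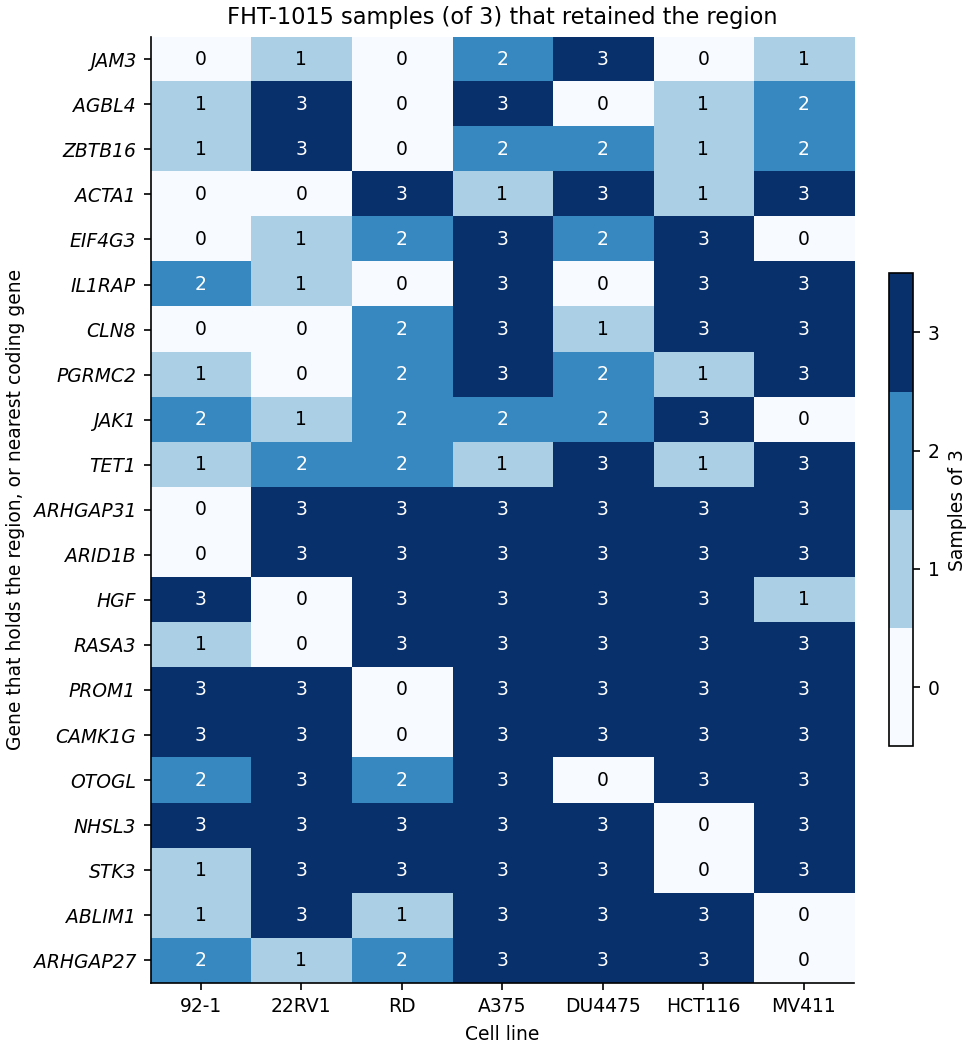
Number of FHT-1015 samples, of 3, that retained each named region (rows, named by the gene that holds it or the nearest protein-coding gene) in each line (columns). The top 10 rows are the regions retained least, from JAM3 (7 of 21 samples) to TET1 (13), and the rows under them are regions lost in 1 line, with 0 in the losing line.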

How the data were processed

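ATAC-seq peak lists of 42 samples were used, 1 list per sample, so replicates were not pooled by the authors. Per the submitters' processing notes, Bowtie2, Picard, MACS2, limma, HOMER and the build hg38 were named. The sources used here give no versions or settings and name no shift of reads to the transposase cut. Per the labels' protocols, libraries were size-selected with beads on both sides. The deposited lists give for each peak a fold enrichment (a ratio over background) and a p-value and q-value on the −log10 scale. Those values were kept as deposited and served to describe or rank peaks of the same list, and folds of different lists are only printed side by side. The smallest −log10 p was 2 to 2.04 across lists, a lenient threshold, so weak peaks can come and go between replicates.

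Intervals were merged per sample and intersected over the 21 DMSO lists with Python 3.11.15, numpy 2.4.6 and pandas 2.3.3. Gene ends, names and promoter windows came from RefSeq GRCh38.p14, which pairs 19970 protein-coding and 39124 other genes with the chromosomes used. The gene table has no strand, and coordinates are those of the lists, counted from 1. Whole-number pileups and a background were recovered from fold and p (tolerance 0.01 on −log10 p) for 99.98% or more of the peaks sampled in each list. Lists were thinned to 0.5 of a line's lowest background, keeping −log10 p of at least 5, in the 6 lines whose background was at least 0.1 in every sample. Such intervals and backgrounds bound the precision, since a deeper list gives smaller p for the same enrichment.

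Shares were compared by exact permutation of the labels within lines, two-sided, at a threshold of 0.05, with Benjamini-Hochberg adjustment over the 7 lines or 21 pairs. The functions were tested on simulated data. Replicates are biological per the labels, and p-values measure the spread between these samples. No 2 replicate lists were identical (0.0367% to 6.37% of intervals shared both ends). Alternatives were: any or all bases covered, strict peaks, the 50000 strongest peaks, thinned lists, segments of at least 200 bp, more than 20 kb from gene ends, ends of all RefSeq genes, a replicate block, each sample left out, and lines left out. Named regions were the 10 retained in the fewest FHT-1015 samples, the 5 strongest retained in all 21, the 2 lost in each line and kept most widely elsewhere, and the 5 strongest over non-coding genes. The choice of the regions, the lists and the tests was made with earlier results of these data known. The 4 classes, the tests without 92-1, without RD or without mitochondrial pseudogenes, and the test of listed starts were added after seeing the data. The marker check of 22RV1 is not reported here.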

Additional observations from a re-analysis of the deposited data

Results flagged for a closer look

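Among the 50000 strongest peaks, the share of held-out distal regions moved in opposite directions in lines whose 2 groups did not overlap. In A375 it was 6.20 points higher under FHT-1015 and in 22RV1 1.02 points lower, a difference of 7.22 points between the lines (exact permutation test over 400 assignments, p = 0.005, adjusted over 21 pairs 0.0525). In MV411 it was 5.71 points higher, a difference of 6.74 points from 22RV1 (the same p and adjusted p). In the deposited lists MV411 and 22RV1 were both lower under FHT-1015, by 1.76 and 1.55 points, and A375 differed by 0.225 points. The permuted labels take no change in either line as the null, and the cause of these differences was not tested.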

How the results depend on the processing

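Planned and added settings bear on the results as follows, with exact permutation p-values and differences in points. Over lines, the fall of the held-out distal share kept its sign in all 10 planned settings and lost its call with strict peaks (-7.39, exact permutation p = 0.0646), the 50000 strongest peaks (-2.35, p = 0.428), thinned lists (-5.68, p = 0.0639) and segments of at least 200 bp (-4.17, p = 0.0971). Without 92-1 it was -3.82 with strict peaks and turned to 1.37 with the strongest, and without RD it was -4.78. The gap to gene-end regions was not called with strict peaks (-1.74), segments of at least 200 bp (-0.556) or without RD (-0.674), and turned to 0.430 with the strongest peaks (0.392 without 92-1). The gap of regions with no listed start was not called with strict peaks (-1.98) or without RD (-1.11), and turned to 0.210 with the strongest peaks. Leaving out 1 sample gave -7.21 to -4.02, -1.70 to -1.21 and -2.18 to -1.71 for the 3 results. Within lines, A375 turned to -5.25 with thinned lists and -0.346 with segments of at least 200 bp, HCT116 to -0.153 with any base, and MV411 to 5.71 with the strongest peaks and 0.346 with thinned lists. Leaving out 1 sample gave -0.884 to 1.39 in A375 and -0.217 to 0.716 in HCT116. The cause of these changes was not tested.

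Regions lost in 92-1, 22RV1, RD, A375, DU4475, HCT116 and MV411 numbered, in that order, 171, 24, 45, 2, 10, 21 and 17 when all bases had to be covered, 191, 25, 167, 20, 49, 30 and 20 with strict peaks, 78, 21, 50, 18, 34, 12 and 20 with the strongest peaks, and 3, 1, 3, 0, 0, 0 and 0 among regions of at least 200 bp. The counts with strict or strongest peaks did not require such a peak under DMSO, so part of them need not be losses. Among the strongest peaks the mean share of the 1084 regions was higher under FHT-1015 in A375 (94.2% against 90.1%) and MV411 (95.4% against 90.1%). It was lower in the other lines. With any base 16 were lost in 92-1 and 1 in HCT116, and beyond 20 kb 17 were lost in 92-1 and 5 in 22RV1. Leaving out 1 FHT-1015 sample gave 34 to 264, 9 to 12, 22 to 45, 0 to 5, 5 to 11, 5 to 7 and 7 to 9 in the same order of lines, the highest in 92-1 without replicate 1 and in RD without replicate 3. Regions in all 21 lists numbered 57 with all bases, 90 with strict peaks, 182 with the strongest, 216 beyond 20 kb, 814 without 92-1, and 344 to 536 with 1 sample left out, the highest without replicate 3 of 92-1. Counts with samples left out, of losses or of regions in all lists, rest on fewer lists and so cannot fall.

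Region by region, deviations from the group means of same-numbered samples correlated at -0.0968 to 0.121 over distal regions, and every pair passed 0.1 in 0 lines. Such a correlation cannot show a shift common to all regions of a sample. The held-out distal shares ranked the replicate numbers alike under DMSO and FHT-1015 in 92-1 and HCT116, and did not in the other lines. Whether replicate numbers pair the samples was therefore not settled. With a replicate block the mean fall of the distal share was -5.26 (exact permutation p = 0.000756), the gap to gene-end regions -1.46 (p = 0.0227) and that of regions with no listed start -1.93 (p = 0.00858).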
